A study of Mus musculus with 6 samples.

Results

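Messenger RNAs for the nuclear-encoded subunits of the respiratory chain and ATP synthase were described in circulating red cells of mice with and without a mutant allele of Nxf1. The group was defined by gene symbol and not by any measured value, though with earlier results of these data known. It took protein-coding genes named Ndufa, Ndufb, Ndufc, Ndufs, Ndufv, Uqcr, Cox4i, Cox5 to Cox8 and Atp5, together with Sdha to Sdhd and Cyc1. It held 89 of the 27179 genes listed per library, with 39 in complex I, 4 in complex II, 9 in complex III, 20 in complex IV and 17 in complex V. Purified erythrocytes came from 3 males heterozygous for the C587R missense allele (Nxf1+/C587R) and from 3 wild-type littermate males, all on a BalB/c background. Each library was made from polyadenylated RNA of 1 animal, and each of 3 labelled batches paired 1 mutant with 1 wild-type library. The animals' ages, and whether any other allele was carried, are not given in the sources used here.

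The respiratory chain passes electrons from NADH (complex I) and succinate (complex II) through complex III to oxygen at complex IV, and complex V uses the resulting proton gradient to make ATP. Most subunits are encoded in the nucleus and imported, while a core of complexes I, III, IV and V is encoded by mitochondrial DNA. Maturing red cells lose their nucleus first and then their mitochondria, so that circulating erythrocytes have neither, and the RNA of a red cell preparation is mostly what reticulocytes, the youngest circulating red cells, still carry. Nxf1 encodes the main receptor that exports messenger RNA from the nucleus.

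Total counts ran from 14636739 to 15790336 per library, and globin transcripts took 88.1% to 89.3% of them, as the erythrocyte label implies. All 3 mutant libraries also held transcripts known from liver, and wild-type library 1 held transcripts known from pancreas, with values given with the other markers. Nxf1 itself had 9, 7 and 11 counts in the mutants against 15, 10 and 20 in wild type, with log2 −0.21 (SE 0.38, edgeR adjusted p = 0.850), and counts per gene do not show the allele. The 89 subunit genes together had 3432, 3782 and 4179 counts in the mutants against 5190, 4881 and 5312 in wild type. In each library 14 to 22 of them had no count, which allows up to 3 counts, or 0.190 to 0.205 CPM (counts scaled to a library of 1000000), and covers counting error only. The scaling factors (TMM, which scale libraries by their typical gene) were 0.720, 0.780 and 1.06 in the mutants against 1.23, 1.11 and 1.23 in wild type, so each value is given with these factors and, where it matters, with total counts alone.

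A few small subunits and 1 catalytic subunit carried most of the signal. Atp5b, Cox8a, Cox6c, Ndufa1 and Atp5mpl together took 61.5% to 65.7% of the subunit counts in every library, and the 10 most counted genes of each library took 75.5% to 78.6%. Compared per length, as TPM (counts per length, scaled to the same sum in each library over all genes other than globins), the highest mean levels over the 6 libraries were those of Cox8a (326), Ndufa1 (321), Cox6c (319), Atp5b (277), Atp5mpl (194) and Ndufa3 (178). The next genes were Cox6a1 (85.6), Atp5k (73.8), Atp5e (73.6) and Cox6b2 (70.1). Cox8a, Ndufa1 and Cox6c cannot be ordered, since their levels per library overlapped widely (249 to 413, 236 to 399 and 242 to 384 TPM). The place of Atp5b differed between the genotypes, at 152, 176 and 240 TPM in the mutants and 354, 367 and 371 TPM in wild type. In every mutant library it was below these 3 genes. These levels do not use the TMM factors. With TMM, Atp5b missed the threshold between genotypes (log2 −0.38, edgeR adjusted p = 0.166). Its mean was the fifth of the group in the mutants (189 ± 45.4 TPM) and the second in wild type (364 ± 8.78 TPM, SD, n = 3 each).

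Subunits that stand together in a complex did not share a level. Of the 81 genes with any count, 38 had enough counts to be tested and 43 did not, none of the latter reaching more than 15 counts in a library. The mean level per length of the highest of the 38 was 140 times that of the lowest. Libraries of both genotypes were at 0 for Sdhd, Uqcr11, Cox7b2, Cox8b, Cox8c, Ndufa4l2, Atp5g1 and Atp5g2. The handling of multi-mapped reads is not given, so a count of 0 need not mean absence. The order of levels was alike between libraries: Spearman's rho of TPM over the 81 genes was 0.857 to 0.940 within a genotype (6 pairs of libraries) and 0.839 to 0.941 between genotypes (9 pairs). That is a description over genes of shared lengths, which are not independent replicates.

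**Figure D1:**
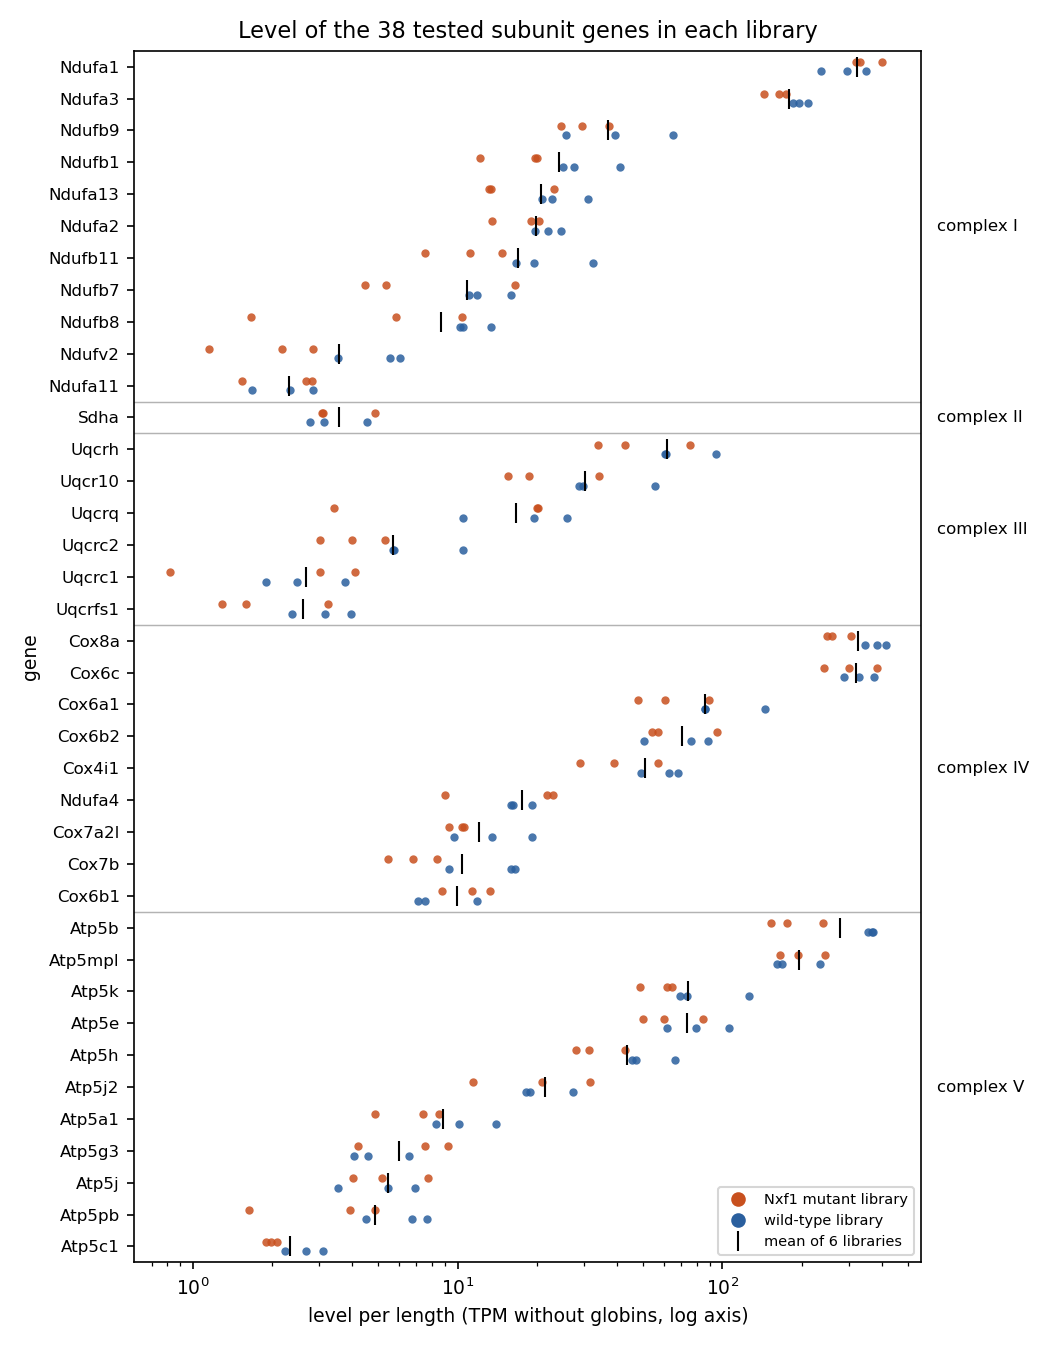
Level per length (TPM over all genes other than globins, log axis) of the 38 tested subunit genes by complex, with 1 point for each mutant or wild-type library and a bar for the mean of the 6. Cox8a, Ndufa1, Cox6c, Atp5b, Atp5mpl and Ndufa3 stand to the right of the other genes, with means from 178 to 326 TPM.

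The comparison of genotypes asked whether these messages differ between red cells of mutant and wild-type mice. Of the 38 subunit genes tested, 2 were higher in the mutants, Ndufa1 and Atp5mpl, and 0 were lower (edgeR, adjusted p under 0.05 over 2823 genes). That is 5.26% higher, beside 5.99% higher and 1.06% lower among all genes tested, so the share of called subunit genes was near the background. At an unadjusted p under 0.05 there were 6 higher and 1 lower of the 38, beside 10.9% higher and 7.65% lower of all genes tested. DESeq2 and limma-voom also called 2 higher and 0 lower, beside 6.27% and 0.39% of all genes for DESeq2 and 5.67% and 0.886% for limma-voom. The log2 fold changes of the 38 ran from −0.73 to 1.01, with 23 above 0, 15 below and a median of 0.09, beside a median of −0.06 over all genes. Within batches 1, 2 and 3 the median difference of the 38 was 0.21, 0.16 and 0.077. In 8 of them the mutants lay above wild type without overlap and in 2 below (21.1% and 5.26%, beside 12.3% and 11.1% of all genes tested). Since these are bulk preparations, fewer cells carrying a message and less of it per cell cannot be told apart.

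The direction of the group depended on the scaling. With total counts 0 subunit genes were higher and 1, Atp5b, was lower, beside 4.07% higher and 8.68% lower of all genes tested. The 38 genes then had 10 values above 0 and 28 below, with a median of −0.41. The median of all genes moved to −0.53 under that scaling. The difference between the subunit genes and the median gene hardly moved, at 0.15 with TMM and 0.12 with total counts. As a share of all counts, the 89 genes took 226, 248 and 286 CPM in the mutants against 335, 332 and 336 CPM in wild type, which did not overlap (253 ± 30.0 and 334 ± 2.37, SD, n = 3 each). The mutant minus wild-type difference was −109, −83.7 and −50.9 CPM in batches 1, 2 and 3. Atp5b weighed heavily in this. Without it the other 88 genes took 171, 187 and 212 CPM against 220, 227 and 209, which overlapped. The differences were then −48.7, −39.6 and 3.13 CPM. With TMM factors the sums of all 89 genes were 314, 318 and 270 against 273, 298 and 274, and the genotypes overlapped. Of the 38 genes, 11 lay lower in every mutant library and 1 higher with total counts, beside 31.5% and 5.31% of all genes.

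**Figure D2:**
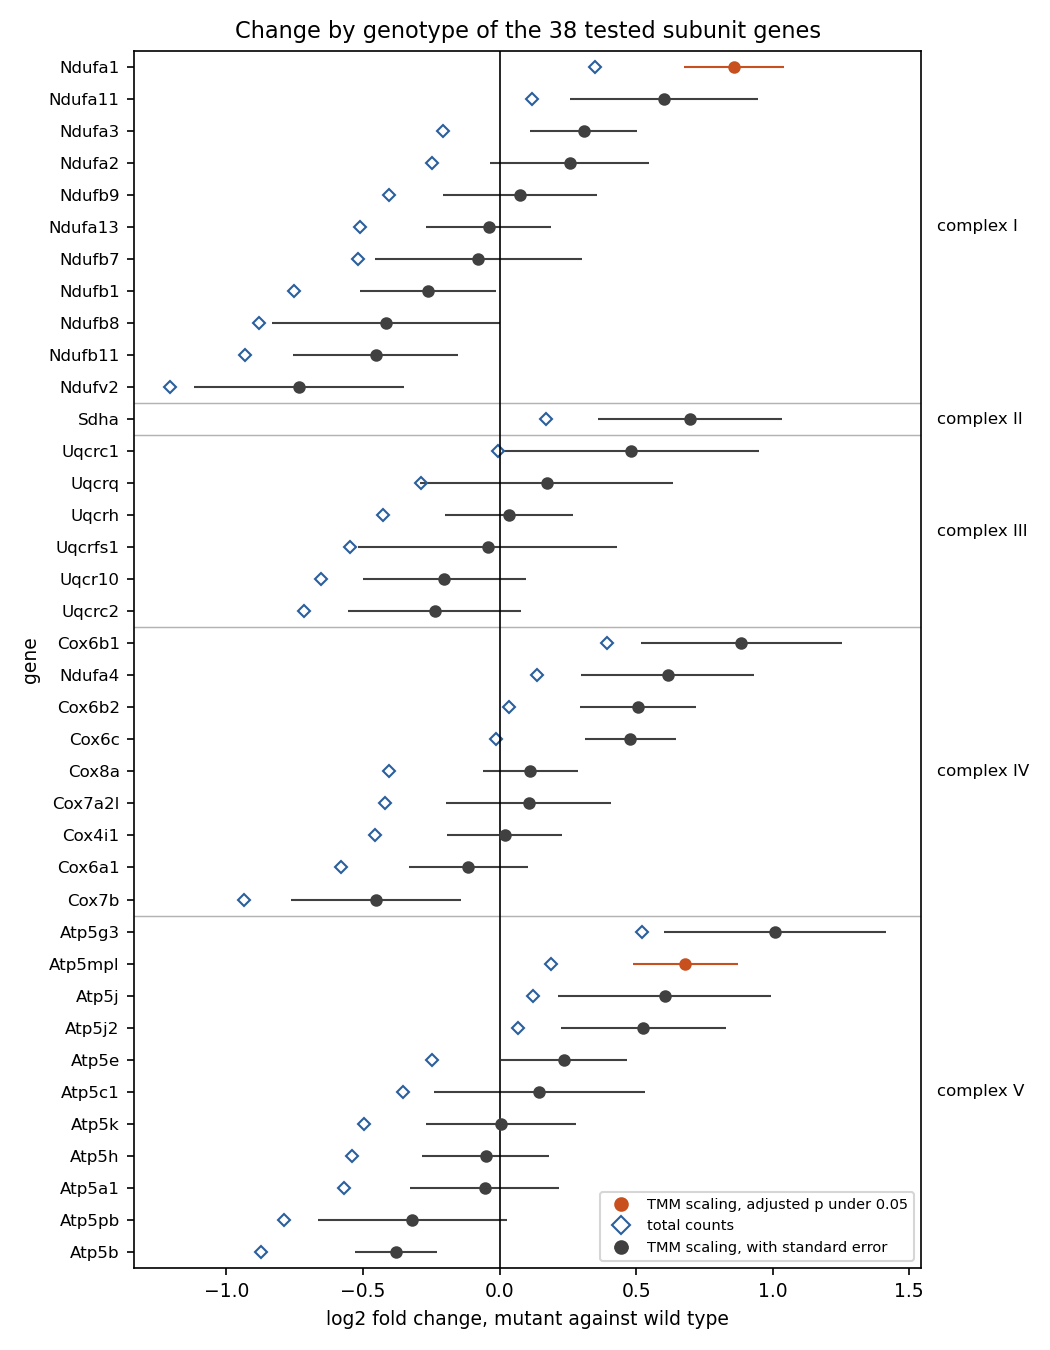
Log2 fold change, mutant against wild type, of the 38 tested subunit genes by complex. Filled points with standard errors use TMM scaling (the 2 genes with an adjusted p under 0.05 in orange), and open diamonds use total counts, which place every gene further to the left.

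In complex I, which takes electrons from NADH, 1 of 11 tested genes was higher in the mutants and 0 were lower. Their median log2 fold change was −0.04. Among all genes tested 5.99% were higher and 1.06% lower, and so few genes cannot set a complex apart from that share. Ndufa1, a small single-pass membrane subunit needed to assemble the complex, was the gene that rose (Entrez gene 54405, chromosome X, 37187588 to 37191238 in mm10). It had 464, 457 and 472 counts in the mutants against 393, 384 and 337 in wild type. Scaled with TMM these were 42.5, 38.4 and 30.5 CPM against 20.6, 23.4 and 17.4 CPM. Every mutant library lay above every wild-type library, and mutant library 3 was the lowest of its group. The means were 37.1 ± 6.12 and 20.5 ± 3.04 CPM (SD, n = 3 each), a 1.81-fold difference (log2 0.86, SE 0.18, edgeR adjusted p = 0.00428). The mutant was higher by 1.04, 0.71 and 0.81 on the log2 scale within the 3 batches.

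With total counts Ndufa1 had 30.6, 30.0 and 32.2 CPM in the mutants against 25.4, 26.1 and 21.3 in wild type. These did not overlap either, but log2 0.35 missed the threshold (edgeR adjusted p = 0.156). Against the median gene the difference was 0.91 with TMM and 0.88 with total counts. The call was also lost without wild-type library 3 (log2 0.75, edgeR adjusted p = 0.0637), the library in which Ndufa1 was lowest. The males have 1 X chromosome, so both genotypes carry 1 copy of this gene. Its promoter window, from RefSeq (GRCm38.p6, minus strand, 5′ to 3′, 250 bases before to 50 after the start), is shown because this was the most firmly called member. It held none of the 6 motifs described further on.

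Ndufa1 chrX:37191189-37191488: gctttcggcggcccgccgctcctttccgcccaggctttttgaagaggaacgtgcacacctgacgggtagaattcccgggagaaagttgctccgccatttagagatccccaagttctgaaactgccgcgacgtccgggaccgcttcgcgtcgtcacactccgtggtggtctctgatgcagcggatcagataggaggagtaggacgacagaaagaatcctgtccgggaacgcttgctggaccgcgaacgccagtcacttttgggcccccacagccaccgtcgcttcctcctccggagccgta

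The rest of complex I was uneven between its accessory and its core parts. Ndufa3, a small accessory subunit, was the second most abundant gene of the complex per length, with 147, 160 and 145 counts in the mutants against 173, 164 and 196 in wild type (log2 0.31, SE 0.20, edgeR adjusted p = 0.459). Its counts were lower in every mutant library and its TMM-scaled levels overlapped. Ndufb9, an accessory subunit of the membrane arm, had 47, 54 and 58 counts against 45, 95 and 74 (log2 0.08). Of the 30 accessory genes 10 were tested, while of the 7 core genes of the catalytic arm only Ndufv2 was. The remaining 2 of the 39 genes are retrocopies of Ndufb4 with at most 3 counts each.

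Ndufv2, an iron-sulfur subunit of the NADH-binding module, had 5, 9 and 10 counts in the mutants against 22, 20 and 15 in wild type. It had the lowest log2 fold change of all 38 genes, −0.73 (SE 0.38), which did not pass (edgeR adjusted p = 0.329, and 0.0658 with total counts). The mutant and wild-type levels did not overlap, at 0.458, 0.757 and 0.645 against 1.16, 1.22 and 0.773 CPM. Ndufb11, an X-linked accessory subunit, had 28, 18 and 30 counts against 38, 62 and 48 (log2 −0.45, edgeR adjusted p = 0.488). The 7 core genes together had 32, 51 and 36 counts against 73, 34 and 39, where wild-type library 1 was the highest and the genotypes overlapped.

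Complex II, the only complex of the chain with no mitochondrially encoded subunit, was close to the detection limit. Its 4 genes had 33, 55 and 33 counts in the mutants against 59, 28 and 36 in wild type. Sdha, the flavoprotein that oxidises succinate, was the 1 gene tested, with 26, 39 and 21 counts against 35, 20 and 23 (log2 0.70, SE 0.34, edgeR adjusted p = 0.277). The TMM-scaled levels overlapped, and mutant library 3 lay within the wild-type range. Sdhb, the iron-sulfur subunit, had 2, 5 and 8 counts against 14, 4 and 8. Sdhc, a membrane anchor, had 5, 11 and 4 against 10, 4 and 5, and Sdhd, the other anchor, had none. A difference in Sdhb, Sdhc or Sdhd was not detectable at this depth.

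In complex III, which passes electrons from ubiquinol to cytochrome c, 0 of 6 tested genes were called. Among all genes tested 5.99% were higher and 1.06% lower. The median of the 6 was −0.0047 on the log2 scale. Uqcrh, the hinge protein that binds cytochrome c1, was the most abundant per length, with 69, 52 and 99 counts in the mutants against 89, 116 and 97 in wild type (log2 0.03, edgeR adjusted p = 0.961). Uqcr10 and Uqcrq, both small accessory subunits, had 20, 23 and 36 against 34, 55 and 38 counts and 5, 28 and 24 against 14, 29 and 28 counts. The genotypes overlapped in all of these.

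The core proteins of complex III were lower per length than these 3 small subunits. Uqcrc1 had 4, 19 and 12 counts against 11, 7 and 18 (log2 0.48, SE 0.47, edgeR adjusted p = 0.681). Uqcrc2 had 22, 16 and 24 against 29, 44 and 31 (log2 −0.24, SE 0.32, edgeR adjusted p = 0.776). Their mean levels were 2.68 and 5.70 TPM, beside 61.6 TPM for Uqcrh, 30.4 for Uqcr10 and 16.6 for Uqcrq.

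In complex IV, cytochrome c oxidase, 0 of 9 tested genes were called, beside 5.99% higher and 1.06% lower of all genes tested. The median of the 9 was 0.11 on the log2 scale with TMM and −0.40 with total counts. Cox6c, a small accessory subunit, came nearest, with 357, 423 and 462 counts in the mutants against 442, 419 and 419 in wild type. Scaled with TMM it had 32.7, 35.6 and 29.8 against 23.2, 25.6 and 21.6 CPM, without overlap. Its log2 value of 0.48 (SE 0.17) missed the threshold (edgeR adjusted p = 0.104), but passed without mutant library 3 (0.61, edgeR adjusted p = 0.0291). With total counts it was −0.012. Cox6c shares exon bases with Vps13b on the other strand, and that gene had at most 15 counts in a library. The strand setting is not given, and the part of shared reads in the Cox6c counts was not tested.

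Cox8a, a small accessory subunit, had 398, 395 and 400 counts in the mutants against 604, 467 and 543 in wild type. The TMM-scaled levels overlapped, at 36.4, 33.2 and 25.8 against 31.7, 28.5 and 28.0 CPM (log2 0.11, SE 0.17, edgeR adjusted p = 0.820). With total counts they did not, at 26.2, 25.9 and 27.3 against 39.0, 31.7 and 34.4 CPM (log2 −0.40, edgeR adjusted p = 0.103). Cox8a is thus higher or lower in the mutants according to the scaling, and passed the test under neither.

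Several complex IV subunits exist as isoforms that differ between tissues, and the red cell libraries held mainly the forms known from most tissues, with 1 exception. Cox4i1 had 58, 74 and 93 counts in the mutants against 90, 103 and 123 in wild type, while the lung isoform Cox4i2 had 1 count in all. Cox6a1 had 75, 91 and 114 against 123, 172 and 132, while the heart and muscle isoform Cox6a2 had 0, 0 and 0 against 3, 0 and 0. Cox7b had 16, 19 and 20 against 25, 37 and 46 (log2 −0.45, edgeR adjusted p = 0.504) and Cox7b2 none. Neither Cox4i1 nor Cox6a1 passed the test (log2 0.018 and −0.11, edgeR adjusted p = 0.977 and 0.853).

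The heart and muscle isoforms Cox7a1 and Cox8b had 1 and 0 counts over the 6 libraries, and the testis isoform Cox8c had none. Cox7a2, the form of Cox7a1 used in most tissues, was itself near 0, with 2, 4 and 2 counts against 1, 0 and 2. Ndufa4, first named as a complex I subunit and now placed in complex IV, had 13, 30 and 27 counts against 21, 21 and 23 (log2 0.62, SE 0.32, edgeR adjusted p = 0.316). Its hypoxia-induced relative Ndufa4l2 had none.

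The exception was Cox6b2, best known as the testis isoform of a subunit facing the intermembrane space. It had 101, 92 and 138 counts in the mutants against 123, 119 and 88 in wild type, while Cox6b1, the form of most tissues, had 13, 16 and 16 against 16, 8 and 11. Per length Cox6b2 was above Cox6b1 in every library, by 6.50, 4.81 and 7.21 times in the mutants against 6.43, 12.4 and 6.69 times in wild type. The genotypes overlapped in this ratio, and wild-type library 2 stood above the rest. The log2 fold changes were 0.51 (SE 0.21) for Cox6b2 and 0.89 (SE 0.37) for Cox6b1, and neither passed (edgeR adjusted p = 0.202 and 0.191). Both genes lie on chromosome 7 (Cox6b2 from 4751792 to 4753094, Cox6b1 from 30616971 to 30626114). Their promoter windows from RefSeq (GRCm38.p6, both on the minus strand) are shown to set this pair of isoforms side by side. Capitals mark CCAAT boxes on either strand and, in Cox6b1, 1 ETS motif on the other strand. Cox6b2 and Cox6b1 each held 3 CCAAT matches.

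Cox6b2 chr7:4753045-4753344: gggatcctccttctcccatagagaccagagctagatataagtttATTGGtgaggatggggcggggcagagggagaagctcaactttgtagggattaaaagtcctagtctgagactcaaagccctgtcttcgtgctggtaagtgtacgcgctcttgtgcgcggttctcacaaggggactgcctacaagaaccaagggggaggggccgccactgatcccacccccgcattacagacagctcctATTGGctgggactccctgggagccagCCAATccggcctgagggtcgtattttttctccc

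Cox6b1 chr7:30626065-30626364: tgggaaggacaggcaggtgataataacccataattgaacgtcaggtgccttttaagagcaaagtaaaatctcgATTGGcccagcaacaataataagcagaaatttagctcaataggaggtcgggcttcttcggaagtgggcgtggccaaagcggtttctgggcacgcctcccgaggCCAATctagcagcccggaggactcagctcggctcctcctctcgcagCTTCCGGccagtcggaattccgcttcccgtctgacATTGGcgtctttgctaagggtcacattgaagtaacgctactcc

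In complex V, ATP synthase, 1 of 11 tested genes was higher and 0 were lower with TMM, and 0 were higher and 1 lower with total counts. Among all genes tested 5.99% were higher and 1.06% lower with TMM, and 4.07% and 8.68% with total counts. Atp5mpl, a small proteolipid of the membrane part, was the gene that rose with TMM (Entrez gene 70257, chromosome 12, 111961374 to 111967009). It had 177, 197 and 213 counts in the mutants against 157, 191 and 177 in wild type, or 16.2, 16.6 and 13.7 against 8.25, 11.7 and 9.12 CPM. All 3 mutant libraries lay above all 3 wild-type libraries. The means were 15.5 ± 1.53 and 9.67 ± 1.77 CPM (SD, n = 3 each), a 1.60-fold difference (log2 0.68, SE 0.19, edgeR adjusted p = 0.0365).

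The call of Atp5mpl was less firm than that of Ndufa1. It was lost with total counts (log2 0.19, edgeR adjusted p = 0.490), with no filter on low counts (0.71, 0.0844), and when mutant library 1, mutant library 2, wild-type library 1 or wild-type library 3 was left out (adjusted p = 0.145, 0.153, 0.0810 and 0.192). Against the median gene the difference was 0.74 with TMM and 0.72 with total counts.

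Atp5b, the catalytic beta subunit in which ATP is made, was the most counted gene of the group and went the other way (Entrez gene 11947, chromosome 10, 128083307 to 128090388). It had 838, 927 and 1078 counts in the mutants against 1787, 1543 and 2016 in wild type. Scaled with TMM these were 76.7, 77.9 and 69.6 CPM against 93.9, 94.1 and 104 CPM, without overlap (log2 −0.38, SE 0.15), which missed the threshold (edgeR adjusted p = 0.166). With total counts they were 55.2, 60.8 and 73.7 against 115, 105 and 128 CPM, and Atp5b fell by 0.88 on the log2 scale (edgeR adjusted p = 0.000706). Against the median gene it was at −0.32 with TMM and −0.34 with total counts. Atp5b was not alone below the median gene. Ndufv2 (−0.68), Ndufb11 (−0.40) and Cox7b (−0.39) were among those lower still with TMM, while 27 of the 38 tested genes lay above it. The promoter window of Atp5b from RefSeq (GRCm38.p6, plus strand) is shown because this gene had the most counts. Capitals mark its 5 CCAAT matches on either strand.

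Atp5b chr10:128083057-128083356: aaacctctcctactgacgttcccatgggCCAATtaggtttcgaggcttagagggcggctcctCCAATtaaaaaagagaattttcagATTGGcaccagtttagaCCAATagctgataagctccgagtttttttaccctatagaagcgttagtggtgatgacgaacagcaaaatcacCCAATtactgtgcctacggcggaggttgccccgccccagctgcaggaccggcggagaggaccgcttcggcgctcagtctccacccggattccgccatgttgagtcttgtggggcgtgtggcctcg

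The alpha subunit, which alternates with beta in the same ring, was far lower. Atp5a1 had 35, 58 and 43 counts in the mutants against 91, 45 and 71 in wild type. Per length Atp5b stood above Atp5a1 by 31.0, 20.7 and 32.4 times in the mutants against 25.4, 44.4 and 36.8 times in wild type, overlapping between genotypes (28.0 ± 6.41 and 35.5 ± 9.54, SD, n = 3 each). Atp5a1 was named after its values were seen. Processed pseudogenes, and a handling of multi-mapped reads that is not given, leave the size of the ratio uncertain.

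Among the other ATP synthase genes, Atp5k, a small subunit of the membrane part, had 53, 40 and 45 counts against 54, 82 and 62 (log2 0.0055, edgeR adjusted p = 0.993). Of the 3 genes for the c subunit, which forms the proton-driven ring, only Atp5g3 had counts, with 15, 8 and 15 against 12, 7 and 8. It had the highest log2 fold change of the 38 genes, 1.01 (SE 0.41), and missed the threshold (edgeR adjusted p = 0.180). The 3 genes encode the same mature protein, and only Atp5g3 was seen at this depth. The handling of multi-mapped reads is not given, so counts of 0 for Atp5g1 and Atp5g2 need not mean absence.

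**Figure D3:**
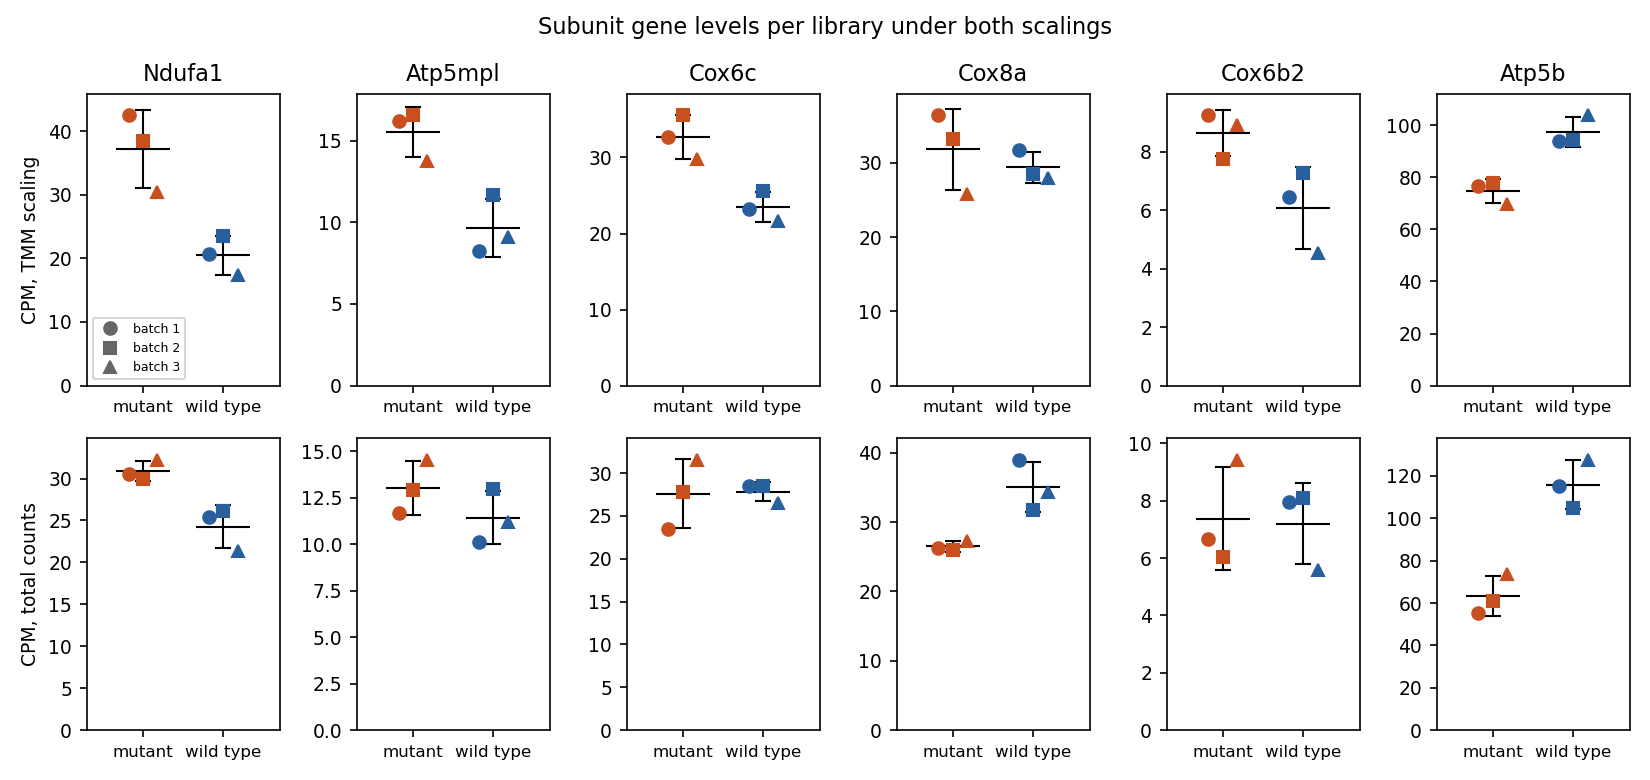
CPM of 6 subunit genes in each library, with TMM scaling in the upper row and total counts in the lower row. Points are libraries, shaped by batch, and bars give the mean ± SD (n = 3 each); Ndufa1 is higher in every mutant library and Atp5b lower in every mutant library in both rows.

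Counts within the group, which need no scaling factor, gave Atp5b a lower share in the mutants. Atp5b took 24.4%, 24.5% and 25.8% of the subunit counts in the mutants against 34.4%, 31.6% and 38.0% in wild type. The other 88 genes together had 2594, 2855 and 3101 counts in the mutants against 3403, 3338 and 3296 in wild type. Their larger share was thus not a rise in their summed counts. There were 1.81, 2.03 and 2.28 counts of Atp5b per count of Ndufa1 in the mutants against 4.55, 4.02 and 5.98 in wild type (2.04 ± 0.239 and 4.85 ± 1.02, SD, n = 3 each). Per count of Atp5mpl there were 4.73, 4.71 and 5.06 against 11.4, 8.08 and 11.4 (4.83 ± 0.197 and 10.3 ± 1.91). Neither ratio overlapped between the genotypes. Both ratios were chosen after the values were seen, use the 2 genes called higher with TMM, and are given without a test.

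By complex, the share of the subunit counts was lower in the mutants for complex V and higher for complexes I and IV. Complex V took 37.7%, 37.2% and 38.9% in the mutants against 45.4%, 43.6% and 48.5% in wild type. Complex I took 26.1%, 25.6% and 23.9% against 20.3%, 22.0% and 19.3%, and complex IV took 31.3%, 31.5% and 31.3% against 29.2%, 28.4% and 27.2%. The genotypes did not overlap in any of these shares. Without Atp5b the shares of complexes V and IV did overlap. Complex V then took 17.6%, 16.8% and 17.6% against 16.8%, 17.5% and 16.9%. Complex I still did not overlap by a small margin, at 34.5%, 34.0% and 32.2% against 30.9%, 32.1% and 31.0%. Ndufa1 alone took 13.5%, 12.1% and 11.3% of the subunit counts in the mutants against 7.57%, 7.87% and 6.34% in wild type. Complex I as a whole had fewer counts in the mutants (895, 970 and 998 against 1052, 1072 and 1023). Its higher share therefore need not hold for its genes other than Ndufa1. Complexes II and III overlapped with and without Atp5b.

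**Figure D4:**
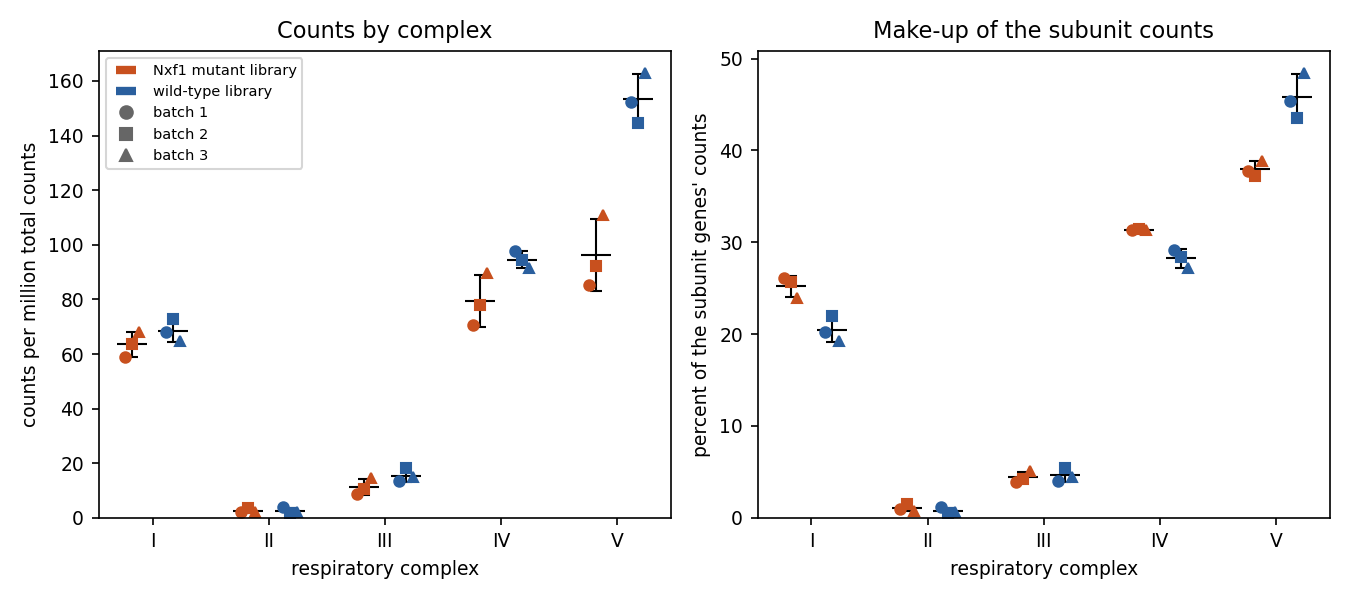
CPM of total counts (left) and percent of the subunit genes' counts (right) by respiratory complex, with 1 point per library shaped by batch and bars for the mean ± SD (n = 3 each). Complex V takes 37.2% to 38.9% of the subunit counts in the mutants and 43.6% to 48.5% in wild type.

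Respiratory genes are known for promoters that bind NRF1, ETS factors and YY1, and their windows were searched for these motifs. RefSeq windows of 300 bases were found for 71 of the 89 genes, with 76 windows in all. The NRF1 motif (GCGC, any 2 bases, GCGC) was in 26.3% of them, beside 6.23% of the 32851 windows of all genes. CCGGAAG (ETS) was in 22.4% beside 8.86%, and AAGATGGC (YY1) in 13.2% beside 2.75%. The other 3 motifs stood closer to their share in all genes. The CCAAT box was found in 40.8% of the subunit windows beside 37.4% of all. The TATA box, searched as TATAAA, was found in 11.8% beside 13.6%. The GATA motif of erythroid factors, searched as AGATAA, was found in 7.89% of the subunit windows beside 11.2% of all. Both strands were searched, and a window with several motifs counts for each. A match is a run of letters and not a site shown to be bound. The windows printed above for Ndufa1, Atp5b, Cox6b1 and Cox6b2 held no NRF1 or YY1 match.

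The genes around the respiratory chain showed few counts and, with TMM, 0 calls. Beside this, 5.99% of all genes tested were higher and 1.06% lower. So few of these genes were tested that 0 calls is near that share. Of 56 assembly factors 5 were tested, with 0 called and a log2 median of −0.24. The 56 genes had 162, 186 and 218 counts in the mutants against 314, 240 and 283 in wild type. With total counts 1 of the 5 was lower, beside 8.68% of all genes tested. It was Higd2a, an assembly factor of complex IV (log2 −1.24, edgeR adjusted p = 0.0491), with 6, 12 and 12 counts against 29, 20 and 24. Of 14 genes for cytochrome c and coenzyme Q, and of 12 transcriptional regulators, none had enough counts to be tested. Cycs, cytochrome c itself, had 1, 1 and 0 counts against 0, 1 and 0. Of 14 citric acid cycle enzymes 6 were tested and 0 called (median −0.05), and of 18 import and outer membrane genes 2 were tested and 0 called (median −0.0045).

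The mitochondrially encoded partners of these subunits differed from them. Of 13 such messages 12 were tested, and all 12 were higher in the mutants with TMM and with total counts (median log2 fold change 2.48 and 2.04). They had 35422, 48345 and 63026 counts in the mutants against 21597, 23338 and 21844 in wild type. For each of these counts there were 0.0969, 0.0782 and 0.0663 nuclear subunit counts in the mutants against 0.240, 0.209 and 0.243 in wild type, without overlap. The rise of the mitochondrial messages was not matched by the nuclear-encoded group under either scaling.

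Transcripts of some other cells and stages moved with the genotype. Of 40 hepatocyte markers 34 were tested, of which 30 were higher and 0 lower, with summed levels of 191 to 442 CPM in the mutants and 0.773 to 5.78 CPM in wild type. Their counts were 2412, 5257 and 2959 against 110, 21 and 15, while those of Ndufa1 were 464, 457 and 472 in the same mutant libraries. When the hepatocyte and exocrine pancreas lists were left out of the fit, Ndufa1 had 0.87 (edgeR adjusted p = 0.00406) and Atp5mpl 0.69 (edgeR adjusted p = 0.0343). That fit dropped the marker genes only and kept every count of the subunit genes. It cannot show how many of those counts came from liver. The part of liver RNA in either result was not tested. Pancreas markers had 416 counts in wild-type library 1 and at most 2 elsewhere.

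Heart muscle is rich in these subunits, and the blood was drawn from the heart. Markers of heart muscle had few counts, and the part of heart RNA in the subunit counts was not tested. Of its 16 markers 8 had none in any library, among them Tnnt2, Tnni3, Actc1 and Myl3, and the sums were 4, 2 and 3 against 9, 6 and 4. Leukocyte markers had 1119, 1100 and 1809 counts against 2149, 1748 and 2189, with 2 of 14 tested lower, beside 1.06% of all genes tested. Scaled with TMM the leukocyte sums overlapped, at 102, 92.5 and 117 against 113, 107 and 113 CPM. Early erythroid markers had 1083, 1071 and 1625 against 2052, 3064 and 3509, with 1 of 5 tested lower, Cd24a, beside 1.06% of all genes tested. Cd24a held 842, 880 and 1212 of these counts against 1719, 2241 and 2467. With TMM the early erythroid sums did not overlap, at 99.2, 90.0 and 105 against 108, 187 and 181 CPM. These sums rest largely on Cd24a and need not hold for the other markers. Platelet markers had 252, 93 and 190 against 199, 205 and 381, with 0 of 8 called. The late erythroid list had 2 of 19 higher and 0 lower, beside 5.99% and 1.06% of all genes tested. The part of these cells and stages in the changes of Ndufa1, Atp5mpl and Atp5b was not tested.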

How the data were processed

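RNA was measured in 6 erythrocyte libraries, 3 of each genotype. The authors deposited 1 table per library with whole-number counts of reads for each gene, not normalized. CASAVA 1.8.2, Subread, featureCounts and the build mm10 are named in the submitters' processing notes. Their other versions, the annotation, the strand setting and the handling of multi-mapped reads are not given in the sources used here. In GENCODE 86 of the 89 genes were found, and 30 share exon bases with another gene, 27 of them on the other strand, so their reads cannot be told apart. Processed pseudogenes of respiratory genes make single values uncertain.

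Genes were named through RefSeq by Entrez number (Ndufb1 through a retired number), and 5 genes matching the symbols but not protein-coding were left out. The test was edgeR 4.0.16 in R 4.3.3 (quasi-likelihood F, robust, TMM, filterByExpr, genotype only), adjusted by Benjamini-Hochberg over 2823 genes. The standard error is the log2 fold change over the root of F. TPM used the gene lengths in the files and no TMM factors, and served to describe levels and their ratios, with no test. The members, lists and the rule for named genes were chosen with earlier results of these data known. That rule took called members, the 3 highest levels and 2 smallest p per complex, the 3 largest changes either way, listed tissue isoforms and Nxf1. Batch pairs the libraries per the labels, and the correlations of same-batch deviations were −0.116, −0.0855 and −0.0439. Alternatives were a batch term, RLE scaling, total counts, no filter, DESeq2 1.42.0, limma-voom 3.58.1 and leaving out each library. A fit without liver and pancreas genes was added after seeing the data. The scripts were tested on simulated data.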

Additional observations from a re-analysis of the deposited data

How the results depend on the processing

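With total counts, 0 subunit genes were higher and 1 lower, and the median log2 fold change was −0.41. With no filter 1 was higher. Leaving out each library gave 0 to 3 higher, and a median of 0.059 to 0.27. The batch term (replicate block) gave 2 higher, 0 lower and a median of 0.09, and changed no call of the named genes. RLE, DESeq2, limma-voom and the fit without liver and pancreas genes changed no direction or call of the named genes. The last of these dropped marker genes only, so it bears on scaling and adjustment and not on the source of the counts. With total counts these values changed sign: Atp5k −0.50, Cox4i1 −0.46, Cox6c −0.012, Cox8a −0.40, Ndufa3 −0.21, Ndufb9 −0.40, Uqcrc1 −0.0045, Uqcrh −0.43 and Uqcrq −0.29. Total counts drop the scaling factors, which moves the median of all genes to −0.53. Leaving out 1 library in turn changed the sign of Atp5k (−0.23 to 0.28), Cox4i1 (−0.11 to 0.090), Uqcrh (−0.077 to 0.24), Uqcrq (−0.29 to 0.56), Ndufb9 (−0.19 to 0.44), Uqcrc1 (−0.13 to 0.84), Cox6a1 (−0.24 to 0.14), Uqcr10 (−0.37 to 0.13), Uqcrc2 (−0.40 to 0.061) and Nxf1 (−0.36 to 0.0054). The cause was not tested. Depth leaves 51 of the 89 genes untested. Dropping a library leaves 2 animals in a group.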
